A study of Mus musculus with 8 samples.

Results

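Odc1 encodes ornithine decarboxylase, the enzyme that makes the polyamine putrescine. It is described here with 9 other genes of polyamine synthesis, breakdown and control (Srm, Sms, Amd1, Sat1, Azin1, Oaz1, Oaz2, Smox and Paox) in mouse breast tumors with and without the death receptor CD95. The 10 genes were given by name, and all 10 were found among the 25006 gene identifiers of the count tables by matching Ensembl identifiers to mouse symbols. Odc1 headed the set and was chosen by its counts in knockout and wild-type tumors from NSG mice: its values in that host, and every comparison that contains them, are therefore a description without a test. The other 9 genes were measured in the same libraries, and the set was put together with results of these data known.

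The tumors grew from 4T1, a mouse triple negative mammary carcinoma line of Balb/c origin, injected into the fat pad and harvested after at most 20 days. Each of the 8 RNA-seq libraries is 1 cell line in 1 host strain, which gives 4 groups of 2. The wild-type groups hold parental 4T1 (replicate 1) and a 4T1 line that stably expresses vCas9 (replicate 2), and the knockout groups hold the CRISPR/Cas9 CD95 knockout clones 54 (replicate 1) and 69 (replicate 2). The same 4 lines were grown in NSG mice, an immunodeficient strain that lacks mature T, B and NK cells, and in Balb/c mice, which have an intact immune system. Each knockout replicate is therefore a clone of its own, and the parental line carries no Cas9. Sex and age of the mice, and whether a library holds 1 tumor or several, were not given in the sources used here, so the p-values measure the spread between these libraries. The series set out to compare tumors with and without CD95 in each host.

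Library totals ran from 8680070 to 19655945 gene-assigned reads. Fas, the gene of CD95, was measured at 33.9 and 22.6 CPM in NSG wild-type, 29.5 and 12.9 in NSG knockout, 51.6 and 46.9 in Balb/c wild-type and 27.1 and 33.7 in Balb/c knockout tumors, given as CPM, the count per 1000000 reads of the library scaled with TMM factors. The NSG groups overlap for Fas, so that the knockout status rests on the labels, and host cells in a bulk tumor also carry an intact Fas gene. Epithelial markers of the tumor cells were detected for 7 of 7 genes. The T cell marker Cd3g and the B cell markers Ms4a1 and Pax5 were at 0 in at least 1 library; the T cell markers summed to 1.82 to 6.3 CPM in NSG and 223 to 305 CPM in Balb/c tumors.

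Polyamines (putrescine, spermidine and spermine) are small positively charged molecules that bind nucleic acids and that proliferating cells need. Ornithine decarboxylase starts their synthesis, is a short-lived protein and is a classic transcriptional target of MYC. Antizymes (Oaz1, Oaz2) bind it and send it to the proteasome, and the antizyme inhibitor Azin1, a relative of ornithine decarboxylase without its activity, takes the antizymes away. Amd1 makes the aminopropyl donor from which Srm and Sms build spermidine and spermine, while Sat1, Smox and Paox run the pathway backwards. In tumors, both cancer cells and macrophages use the pathway.

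The promoters of Odc1, Smox and Sat1 are shown because the counts of these 3 genes differed most between groups of the study or, for Sat1, passed the test with the largest margin. Each sequence is the 250 bases before a RefSeq transcription start on GRCm38.p6, read on the strand of the gene: chr12:17544623-17544872 (plus strand) for Odc1, chr2:131491612-131491861 (plus strand) for Smox and chrX:155216450-155216699 (minus strand) for Sat1. Capitals mark the GC box GGGCGG, or CCGCCC where it lies on the other strand.
Odc1: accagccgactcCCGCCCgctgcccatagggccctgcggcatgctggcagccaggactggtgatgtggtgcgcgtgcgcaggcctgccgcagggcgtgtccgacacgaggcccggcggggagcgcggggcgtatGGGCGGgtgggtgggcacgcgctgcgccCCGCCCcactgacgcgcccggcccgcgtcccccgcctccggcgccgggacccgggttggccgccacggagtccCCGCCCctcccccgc
Smox: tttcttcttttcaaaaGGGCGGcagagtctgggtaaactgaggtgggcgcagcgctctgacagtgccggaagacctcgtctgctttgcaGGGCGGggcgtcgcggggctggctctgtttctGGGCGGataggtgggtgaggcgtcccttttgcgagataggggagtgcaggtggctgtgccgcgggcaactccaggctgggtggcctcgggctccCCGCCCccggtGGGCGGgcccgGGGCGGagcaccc
Sat1: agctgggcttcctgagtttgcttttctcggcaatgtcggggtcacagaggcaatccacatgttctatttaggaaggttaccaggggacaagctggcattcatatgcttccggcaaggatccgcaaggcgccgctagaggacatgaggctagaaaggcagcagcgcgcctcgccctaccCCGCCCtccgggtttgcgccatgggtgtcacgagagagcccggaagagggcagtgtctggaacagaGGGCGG
The RefSeq table used here held 8 of the 10 genes, and Srm and Azin1 were not among them. In windows of 300 bases (250 before and 50 from the start, both strands) the GC box was found in 8 of the 10 windows of these 8 genes (Paox and Sms have 2 windows each), against 35.7% of all 32851 windows in the table. The 2 Paox windows overlap and share bases, so the windows are not independent, and the difference in shares was not tested. Odc1 held 4 GC boxes, Smox 6 and Sat1 2. The MYC-type E-box CACGTG was in 1 of the 10 windows, of Sms (7.15% of all windows), the letters TATAAA in 1, of Oaz1 (13.6%), and TGACGTCA in 0 of 10 (1.79%). A match is a description of the letters, and a window without one says nothing about binding elsewhere.

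Odc1 (chromosome 12, 17544794 to 17551505, plus strand, GRCm38) stood high in NSG wild-type tumors and low in the other 3 groups. NSG wild-type tumors held 844 and 694 CPM, NSG knockout tumors 190 and 167, Balb/c wild-type tumors 202 and 206 and Balb/c knockout tumors 176 and 174. Both NSG wild-type libraries lie above the other 6, which span 167 to 206 CPM. Its reads made up 0.0862% and 0.0725% of all counts in the NSG wild-type libraries and 0.0166% to 0.0195% in the other 6. By count it ranked 99 and 136 among all genes in the NSG wild-type libraries and between 859 and 1196 elsewhere.

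**Figure D1:**
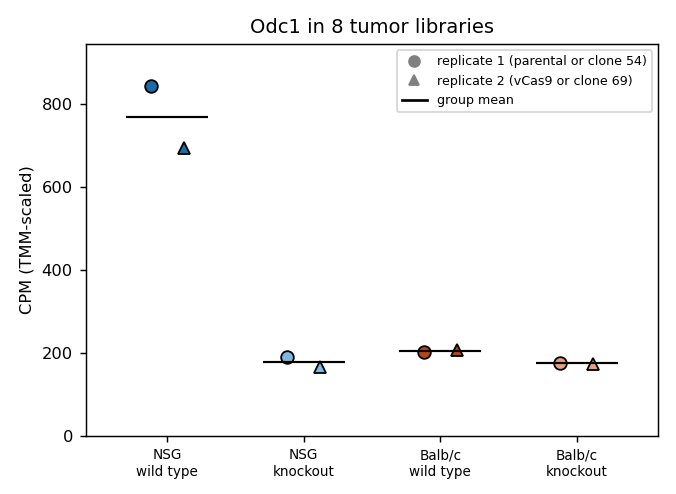
Odc1 in each of the 8 libraries, in TMM-scaled CPM on a linear axis; circles are replicate 1 (parental line or clone 54), triangles replicate 2 (vCas9 line or clone 69), and lines the group means. The NSG wild-type libraries are at 844 and 694 CPM, and the other 6 lie between 167 and 206 CPM.

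In group means, Odc1 was 769 ± 106 CPM (SD, n = 2) in NSG wild-type and 179 ± 16.7 CPM (SD, n = 2) in NSG knockout tumors. The log2 difference of -2.11 (SE 0.19, a 4.31-fold lower level in the knockout) is the value for which the gene was chosen. Among 15310 genes tested with edgeR's quasi-likelihood test, 2 genes (0.0131%) passed an adjusted p of 0.05 in this comparison. Across the settings tried the Odc1 difference stayed between -2.25 and -1.96. Marker sums of other cell types stand beside these values: the 7 epithelial markers summed to 1197 and 1594 CPM in NSG wild-type and to 3517 and 2344 CPM in NSG knockout tumors, and the 8 macrophage markers to 3268 and 3340 and to 1714 and 2221 CPM. In Balb/c tumors the epithelial sums were 809 and 2111 CPM in the wild-type and 753 and 4284 CPM in the knockout libraries. In the NSG knockout comparison 0 of 7 epithelial markers passed by edgeR (2 had an unadjusted p under 0.05, smallest adjusted p = 0.202), as did 0 of 8 macrophage markers (3 had an unadjusted p under 0.05, smallest adjusted p = 0.263). Over all genes 14% had an unadjusted p under 0.05, and DESeq2 called 1 of the 7 and 0 of the 8 (2.22% of all genes). The part of these cells in the Odc1 values was not tested. The Balb/c wild-type tumors held 204 ± 2.79 CPM (SD, n = 2), a log2 difference of -1.91 (SE 0.19) from the NSG wild-type tumors, which is 3.77-fold lower and again rests on the libraries that chose the gene. In the knockout lines the hosts overlapped, with a log2 difference of -0.03 (SE 0.18) between Balb/c and NSG tumors and a range of -0.21 to 0.07 across settings.

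The knockout comparison in Balb/c mice shares no library with the NSG values that chose Odc1. Its spread was estimated over all 8 libraries, and the set was put together with results of these data known. The test is therefore not independent of that choice. In Balb/c mice the knockout tumors held 175 ± 1.34 CPM (SD, n = 2) and the wild-type tumors 204 ± 2.79 CPM (SD, n = 2). The log2 difference was -0.22 (SE 0.18) and did not pass the test (edgeR, adjusted p = 0.436, range 0.282 to 0.664 across settings), although both knockout libraries were below both wild-type libraries, a lack of overlap that 62.2% of all genes tested shared in 1 direction or the other. In this comparison 0.176% of the 15310 genes passed (27 genes, 7 higher and 20, or 0.131%, lower in the knockout). The knockout difference in Balb/c minus that in NSG was 1.89 (SE 0.26) for Odc1, a description because it contains the NSG values.

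The order of the 10 genes within a library was compared in TPM, which divides counts by exon length. Odc1 ranked first in both NSG wild-type libraries at 1005 and 858 TPM, ahead of Sat1 at 487 and 469 TPM. In NSG knockout tumors Odc1 was the third at 244 and 240 TPM, and in all 4 Balb/c libraries the fourth at 177 to 239 TPM. Sat1 was first in these 6 libraries. Sms ranked 9 and Paox 10 in all 8 libraries.

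Set against its regulators on the same scale, Odc1 exceeded Oaz1 by 3.91-fold and 3.33-fold in NSG wild-type tumors. The TPM ratio of Odc1 to Oaz1 was 1.15 and 0.901 in NSG knockout, 1.34 and 1.24 in Balb/c wild-type and 0.696 and 0.785 in Balb/c knockout tumors. Its ratio to Azin1 was 4.51 and 4.59 in NSG wild-type, 1.8 and 1.77 in NSG knockout, 0.882 and 0.88 in Balb/c wild-type and 0.991 and 0.825 in Balb/c knockout tumors. The NSG wild-type libraries had the highest ratio to Oaz1, Azin1 and Sat1. The ratio to Smox, at 2.71 and 2.39 in NSG wild-type tumors, was 2.99 in the Balb/c clone 54 library. These ratios carry the Odc1 values and are given as levels of RNA, since antizyme and ornithine decarboxylase are also set by translation and protein turnover.

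**Figure D2:**
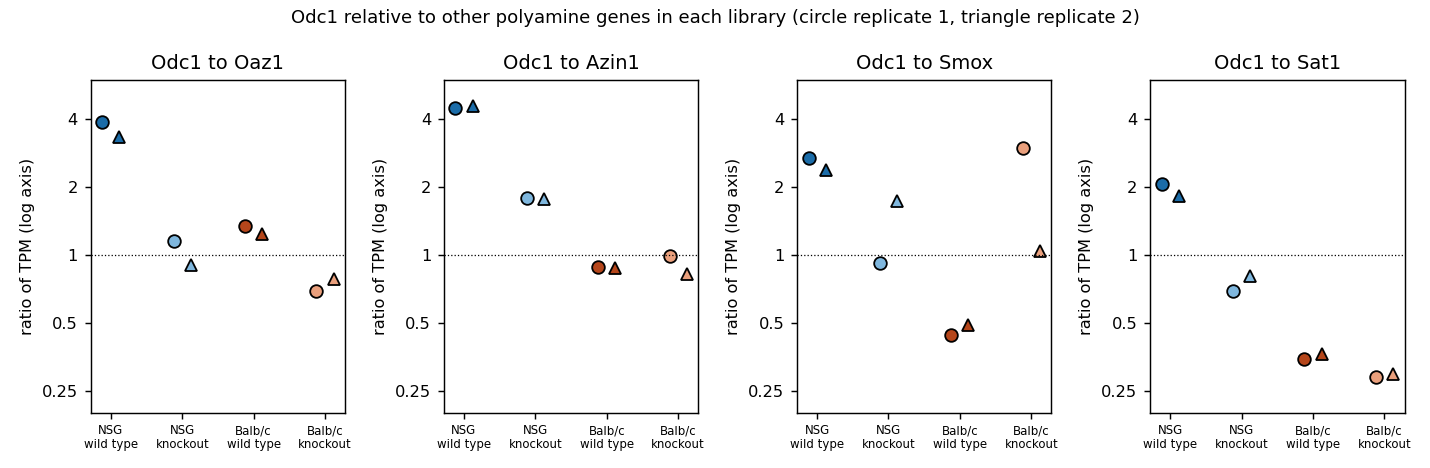
Ratio of Odc1 TPM to that of Oaz1, Azin1, Smox and Sat1 in each library, on a log axis; circles are replicate 1, triangles replicate 2, and the dotted line is a ratio of 1. NSG wild-type tumors lie at 3.91 and 3.33 for Oaz1 and at 2.07 and 1.83 for Sat1, and the Balb/c clone 54 library lies at 2.99 for Smox.

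Azin1 (chromosome 15, 38487427 to 38519266, minus strand), the antizyme inhibitor, was lowest in NSG knockout tumors. Its levels were 343 and 278 CPM in NSG wild-type, 195 and 173 in NSG knockout, 421 and 430 in Balb/c wild-type and 327 and 388 in Balb/c knockout tumors. Both NSG knockout libraries were below all others, and the Balb/c wild-type libraries were the highest. Within NSG tumors, knockout and wild-type libraries did not overlap for 52.6% of all genes. Between hosts, Azin1 rose 1.95-fold in the knockout lines grown in Balb/c mice (log2 difference 0.96, SE 0.19, edgeR adjusted p = 0.00875). With the cell line as a block the difference was 0.96 at an adjusted p of 0.0467; without NSG knockout replicate 2 the adjusted p was 0.0592, and with only the 4 libraries compared it was 0.0543. In the wild-type lines the host difference was 0.45 (SE 0.19, adjusted p = 0.104).

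The knockout difference of Azin1 in NSG tumors was -0.76 (SE 0.19) with an unadjusted p of 0.00458 and an adjusted p of 0.222 by edgeR, and DESeq2 called it (adjusted p = 0.0187). In Balb/c tumors it was -0.25 (SE 0.19, adjusted p = 0.399). The difference between the 2 knockout effects, 0.51 (SE 0.27), did not pass (adjusted p = 0.305).

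Oaz1 (chromosome 10, 80826656 to 80829290, plus strand), antizyme 1, was lower in knockout tumors in NSG mice and higher in knockout tumors in Balb/c mice, and neither difference passed the test. Levels of Oaz1 were 162 and 157 CPM in NSG wild-type, 125 and 139 in NSG knockout, 113 and 125 in Balb/c wild-type and 190 and 167 in Balb/c knockout tumors. The knockout libraries lay below the wild-type libraries in NSG and above them in Balb/c. A lack of overlap was found for 52.6% of all genes in NSG and for 62.2% in Balb/c tumors. The log2 differences were -0.27 (SE 0.16, adjusted p = 0.465) in NSG and 0.59 (SE 0.16, adjusted p = 0.0682) in Balb/c tumors. Without Balb/c knockout replicate 2, the clone 69 library, the Balb/c difference was 0.69. That fit leaves 1 knockout library and called far more of all genes. The difference between the knockout effects was 0.86 (SE 0.22), with an unadjusted p of 0.00508 and an adjusted p of 0.108; no gene of 15310 passed this test by edgeR (0%), 22.5% had an unadjusted p under 0.05, and DESeq2 called 6.36%. For Oaz1 this difference ran from 0.65 to 0.96 across the settings tried. Its host differences were -0.42 (SE 0.16, adjusted p = 0.0746) in the wild-type and 0.44 (SE 0.16, adjusted p = 0.0699) in the knockout lines. Across the settings tried they ran from -0.58 to -0.33 and from 0.24 to 0.53. Each passed in at least 1 of these settings, among them a fit that leaves 1 library in the Balb/c knockout group.

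Oaz2 (chromosome 9, 65668001 to 65690300, plus strand), antizyme 2, stayed in a narrow range. The libraries held 38.4 and 42.8 CPM in NSG wild-type, 46.3 and 42.1 in NSG knockout, 36 and 38.7 in Balb/c wild-type and 42.8 and 44 in Balb/c knockout tumors. The lowest and highest libraries were thus 36 and 46.3 CPM. The largest difference of the 4 comparisons, 0.22 (SE 0.15) for the knockout in Balb/c tumors, did not pass (edgeR, adjusted p = 0.355).

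Srm (chromosome 4, 148591503 to 148594993, plus strand), spermidine synthase, was lower in Balb/c than in NSG tumors. Srm was at 32.8 and 34.1 CPM in NSG wild-type, 23.4 and 32.9 in NSG knockout, 15.4 and 12.3 in Balb/c wild-type and 18.5 and 11.9 in Balb/c knockout tumors. All 4 Balb/c libraries were below all 4 NSG libraries. Over all genes tested, 76.4% did not overlap between hosts in the wild-type and 64.2% in the knockout lines. These shares compare 2 with 2 libraries, and the share that separates all 4 from all 4 was not counted. From NSG to Balb/c mice, Srm fell by 1.27 on the log2 scale in the wild-type lines (SE 0.27, 2.42-fold, edgeR adjusted p = 0.013) and by 0.89 in the knockout lines (SE 0.27, 1.85-fold, adjusted p = 0.0387). The wild-type call was lost with the cell line as a block (adjusted p = 0.0558) and without any 1 of the 4 libraries it compares: the adjusted p was 0.0707 and 0.069 without NSG wild-type replicates 1 and 2, and 0.0554 and 0.102 without Balb/c wild-type replicates 1 and 2. The knockout call was lost with the block (adjusted p = 0.11), with only the 4 libraries compared (0.118), and without NSG wild-type replicate 1 (0.0729) or 2 (0.0729), NSG knockout replicate 2 (0.219), Balb/c wild-type replicate 1 (0.0578) or 2 (0.0579) or Balb/c knockout replicate 2 (0.119). The knockout differences of Srm were -0.25 (SE 0.26, adjusted p = 0.694) in NSG and 0.14 (SE 0.27, adjusted p = 0.751) in Balb/c tumors.

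Sms (chromosome X, 157443855 to 157492287, minus strand), spermine synthase, was measured at 54.8 and 32.8 CPM in NSG wild-type, 29.9 and 36.7 in NSG knockout, 31.4 and 27.3 in Balb/c wild-type and 37.6 and 30.1 in Balb/c knockout tumors. The parental line in NSG mice was the highest library, and the groups overlapped in 3 of the 4 comparisons. Its host difference in the wild-type lines was -0.58 (SE 0.26, adjusted p = 0.124), and its knockout difference in NSG tumors, -0.40 (SE 0.26, adjusted p = 0.517), was 0.02 without the parental library. Sms has a processed pseudogene, Sms-ps, with 0 to 7 counts per library, and reads that fit both leave the Sms level uncertain.

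Amd1 (chromosome 10, 40287458 to 40302186, minus strand), adenosylmethionine decarboxylase, was measured at 53 and 48 CPM in NSG wild-type, 80.3 and 55.7 in NSG knockout, 48.1 and 46.7 in Balb/c wild-type and 50 and 91.9 in Balb/c knockout tumors. The knockout libraries were above the wild-type libraries in both hosts, but the high library was clone 54 in NSG and clone 69 in Balb/c mice. Such a lack of overlap was found for 52.6% of all genes in NSG and for 62.2% in Balb/c tumors. Neither difference passed: 0.43 (SE 0.29, adjusted p = 0.529) in NSG and 0.58 (SE 0.29, adjusted p = 0.216) in Balb/c tumors. Amd1 has a close copy, Amd2, with 3 to 43 counts per library, and how the counting treated reads that fit both copies was not given in the sources used here, so the Amd1 level is uncertain.

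Sat1 (chromosome X, 155213132 to 155216449, minus strand), the acetyltransferase that marks spermidine and spermine for export or oxidation, rose with the Balb/c host in the knockout lines. Sat1 was at 333 and 309 CPM in NSG wild-type, 224 and 168 in NSG knockout, 476 and 460 in Balb/c wild-type and 500 and 478 in Balb/c knockout tumors. All 4 Balb/c libraries lay above all 4 NSG libraries, and the NSG knockout libraries were the lowest. Between hosts, 76.4% of all genes did not overlap in the wild-type and 64.2% in the knockout lines. The share that separates all 4 from all 4 libraries was not counted. Among the knockout lines, Sat1 was 2.49-fold higher in Balb/c than in NSG tumors (log2 difference 1.32, SE 0.20, edgeR adjusted p = 0.00275; 1.33 and 0.0188 with the cell line as a block). This call held in every setting tried, with adjusted p between 1.5e-08 and 0.0329. In the wild-type lines the host difference was 0.54 (SE 0.20, adjusted p = 0.0663).

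Within NSG mice the knockout difference of Sat1 was -0.71 (SE 0.20), with an unadjusted p of 0.00697 and an adjusted p of 0.24, and DESeq2 called it (adjusted p = 0.0379). Within Balb/c mice it was 0.06 (SE 0.20, adjusted p = 0.845) and turned to -0.03 with RLE size factors. The difference between the knockout effects was 0.77 (SE 0.28, unadjusted p = 0.0235, adjusted p = 0.165). All 4 Balb/c libraries lay above the NSG wild-type libraries for Sat1, while for Azin1 the Balb/c knockout libraries (327 and 388 CPM) overlapped with them (343 and 278 CPM).

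Smox (chromosome 2, 131491496 to 131525922, plus strand), spermine oxidase, was high in wild-type tumors and varied widely between the knockout clones. Smox was at 355 and 333 CPM in NSG wild-type, 237 and 110 in NSG knockout, 522 and 480 in Balb/c wild-type and 67.4 and 191 in Balb/c knockout tumors. Every knockout library was below every wild-type library, but clone 54 was the higher clone in NSG and the lower one in Balb/c mice. Within a host, knockout and wild-type libraries did not overlap for 52.6% of all genes in NSG and for 62.2% in Balb/c tumors. The knockout difference was -0.99 (SE 0.49, edgeR adjusted p = 0.406) in NSG and -1.95 (SE 0.51, a 3.87-fold lower level, adjusted p = 0.0652) in Balb/c tumors. The Balb/c difference passed with DESeq2 (adjusted p = 0.00053, where 14% of all genes passed) and without a filter on low counts (0.00881). It was -2.89 without the clone 69 library and -1.49 without the clone 54 library, fits that leave 1 knockout library. Between hosts the difference of Smox was 0.54 (SE 0.49, adjusted p = 0.414) in the wild-type lines. It passed in a fit to only the 4 libraries compared (0.61, adjusted p = 0.00755), for which the share of all genes is not given here. In the knockout lines the host difference was -0.42 (SE 0.49, adjusted p = 0.548). This value was -1.36 without the clone 69 library in Balb/c mice and turned to 0.12 without the clone 54 library there. The difference between the knockout effects was -0.96 (SE 0.69, adjusted p = 0.435).

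Neutrophil markers are given beside Smox. In Balb/c tumors the 8 neutrophil markers summed to 7681 and 6028 CPM in the wild-type and to 532 and 2540 CPM in the knockout libraries, and the library with the lowest sum, clone 54, was also the lowest for Smox. In the Balb/c knockout comparison 0 of 8 passed by edgeR (smallest adjusted p = 0.0564, 0.176% of all genes passed), 6 had an unadjusted p under 0.05 (30.9% of all genes), DESeq2 called 6 (14%), and all 8 differences were below 0, with a median of -2.33. In NSG tumors the sums were 1362 and 1710 CPM in the wild-type and 3134 and 1484 CPM in the knockout libraries. The neutrophil marker Camp was at 0 in at least 1 library. The part of these cells in the Smox values was not tested, and in bulk tumors fewer cells of a type cannot be told apart from less RNA per cell, here and for the other genes.

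Paox (chromosome 7, 140115799 to 140137224, plus strand), the oxidase of acetylated polyamines, was the least abundant of the set. It was measured at 9 and 9.53 CPM in NSG wild-type, 8.56 and 7.46 in NSG knockout, 3.99 and 6.58 in Balb/c wild-type and 14.5 and 5.91 in Balb/c knockout tumors. The clone 54 library in Balb/c mice was the highest of all 8, while clone 69 lay within the Balb/c wild-type range. The knockout difference in Balb/c tumors was 0.95 (SE 0.43, adjusted p = 0.18). It was 1.45 without the clone 69 library, a fit that leaves 1 knockout library and called far more of all genes. The difference between the knockout effects was 1.16 (SE 0.61, adjusted p = 0.298), and 1.67 without the clone 69 library. Paox overlaps Echs1 on the opposite strand, and since the strand setting of the counting was not given in the sources used here, its reads cannot be told apart from those of Echs1 where the genes overlap.

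**Figure D3:**
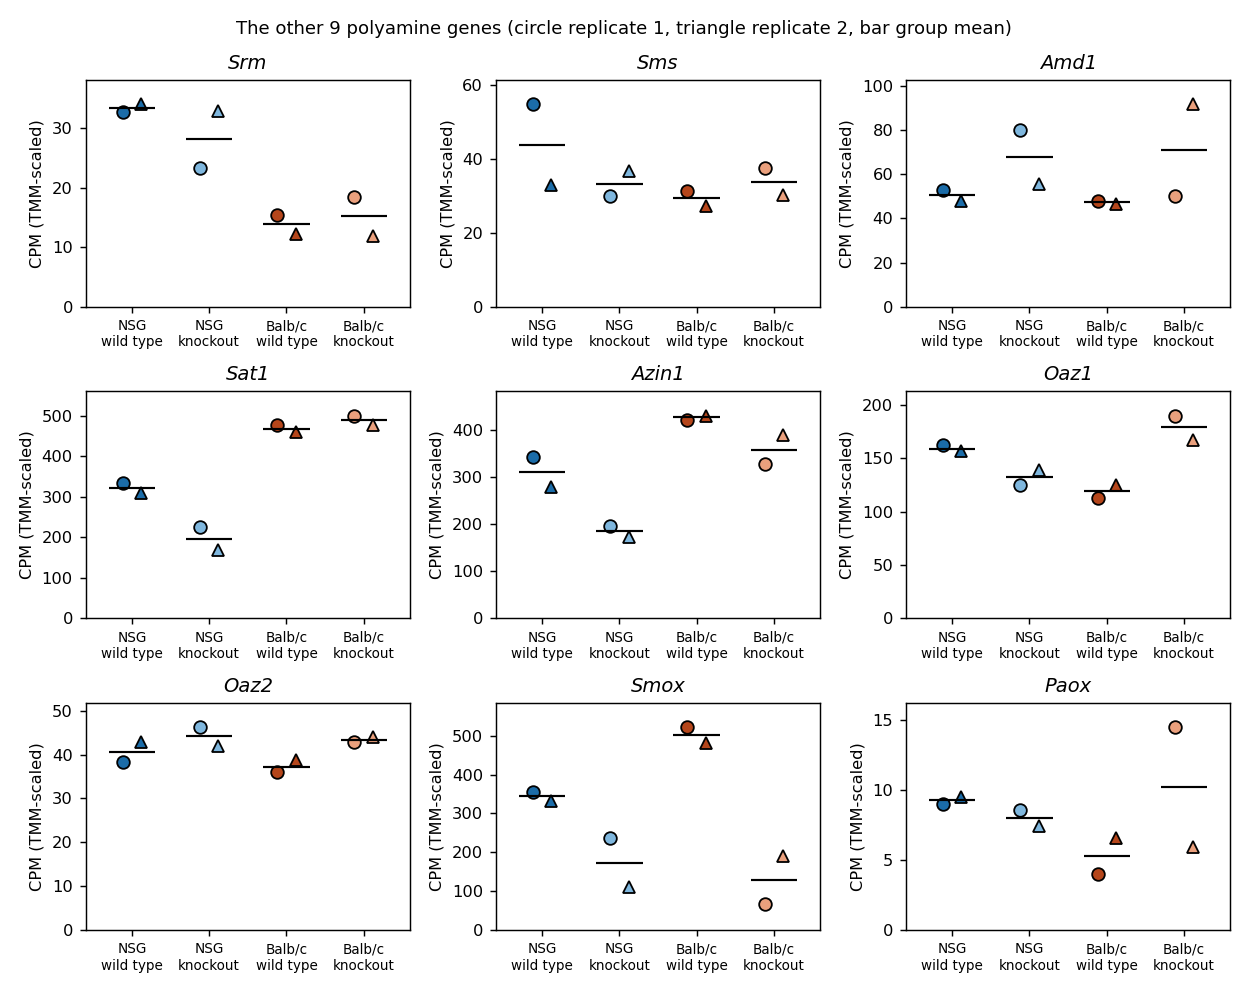
TMM-scaled CPM of the 9 other genes in each library, 1 panel a gene with its own linear axis from 0; circles are replicate 1, triangles replicate 2, and bars the group means. Srm is lower and Sat1 higher in all 4 Balb/c libraries than in all 4 NSG libraries, and Smox is at 67.4 and 191 CPM in the Balb/c knockout libraries against 522 and 480 CPM in the Balb/c wild-type libraries.

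Counted over the set, few of these genes passed in any comparison. In NSG tumors 0 of the 9 genes other than Odc1 passed the edgeR test of the knockout (0.0131% of all genes did), 2 had an unadjusted p under 0.05 (14% of all genes), DESeq2 called 2 (2.22% of all genes) and limma-voom 0. Their median log2 difference was -0.27, with 7 of 9 below 0, against a median of 0.01 over all genes. In Balb/c tumors 0 of 10 passed (0.176% of all genes), 2 had an unadjusted p under 0.05 (30.9% of all genes), DESeq2 called 1 (14%) and limma-voom 0. Their median was 0.17, against 0.06 over all genes.

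The host comparisons called many more genes than the knockout comparisons. Between wild-type tumors 1 of 9 passed (Srm, lower in Balb/c), against 31.5% of all genes, 4 had an unadjusted p under 0.05 (45.8% of all genes), DESeq2 called 3 (Srm, Sat1 and Azin1, 32.3% of all genes), and 0 of 9 passed with the cell line as a block, a fit that called 2073 of 15310 genes. Between knockout tumors 3 of 9 passed (Sat1 and Azin1 higher, Srm lower), against 31.1% of all genes, DESeq2 called 3 (32.4%), and 2 passed with the block, which called 2878 of 15310 genes. By edgeR without the block the share of the set was thus near or below that of all genes. The test of a difference in the knockout effect between hosts was passed by 0 of 9 with edgeR (0% of all genes), 0 with DESeq2 (6.36% of all genes) and 0 with limma-voom (0 of all genes). An unadjusted p under 0.05 was found for 2 of the 9, Sat1 and Oaz1, and for 22.5% of all genes. These comparisons share libraries with each other, so their values are given side by side and are not independent.

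**Figure D4:**
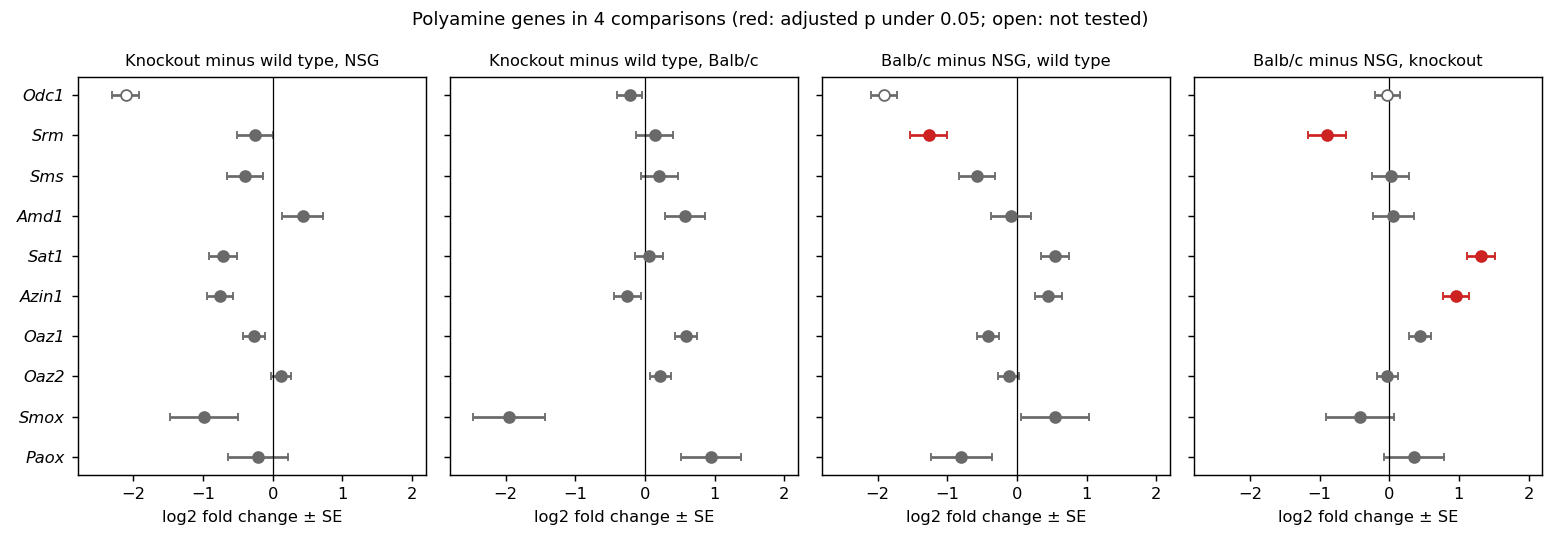
Log2 fold change with its standard error for each gene in the 4 comparisons, from the edgeR fit over all 8 libraries. Red points passed an adjusted p of 0.05 (Srm in both host comparisons, Sat1 and Azin1 in the knockout lines), grey points did not, and open points are Odc1 values that are descriptions without a test.

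Upstream of Odc1, genes that supply ornithine and arginine were examined as a list. Of 11 listed genes 9 were tested, and 3 passed as higher in Balb/c tumors of the knockout lines (31.1% of all genes passed, 15.7% as higher), among them Slc7a2, a transporter of cationic amino acids. The call of Slc7a2 held without any 1 library and with the block. The median log2 difference of the list was 0.61, against 0.02 over all genes. In the wild-type lines 1 of 9 passed (31.5% of all genes), a call lost without either NSG wild-type library.

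Slc7a2 was measured at 110 and 120 CPM in NSG wild-type, 119 and 36.6 in NSG knockout, 140 and 279 in Balb/c wild-type and 1413 and 728 in Balb/c knockout tumors. Its host difference in the knockout lines was 3.78 (SE 0.63, adjusted p = 0.00389). Macrophage markers (8 of 8 detected, none at 0) summed to 3268 and 3340 CPM in NSG wild-type, 1714 and 2221 in NSG knockout, 2143 and 2471 in Balb/c wild-type and 10746 and 4355 in Balb/c knockout tumors. The clone 54 library in Balb/c mice was the highest for both Slc7a2 and the macrophage sum. The part of macrophages in these values, and in those of Sat1 and Azin1, was not tested.

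In the knockout comparisons 0 of the 9 ornithine supply genes passed by edgeR in either host (0.0131% of all genes did in NSG and 0.176% in Balb/c tumors). In NSG tumors 1 of the 9 had an unadjusted p under 0.05 (14% of all genes), and 8 of 9 differences were below 0, with a median of -0.27 where the median of all genes was 0.01. In Balb/c tumors 5 of the 9 had an unadjusted p under 0.05 (30.9% of all genes), 7 were above 0, and the median was 0.53 where that of all genes was 0.06. DESeq2 called 1 of the 9 as lower in NSG (2.22% of all genes) and 4 as higher in Balb/c tumors (14%).

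Genes of S-adenosylmethionine supply and methylthioadenosine salvage feed Amd1 and recycle the by-product of Srm and Sms. Of 9 tested genes 3 fell with the Balb/c host in the wild-type lines (31.5% of all genes passed, 16.2% as lower): Mtap, which cleaves methylthioadenosine, Enoph1, a later enzyme of the salvage, and Ahcy, the hydrolase of S-adenosylhomocysteine. The list median was -0.66, against -0.08 over all genes. With the block 1 was left, Mtap, and Ahcy and Enoph1 were also lost without any 1 of the 4 wild-type libraries. Mtap was also the 1 gene called in the knockout lines.

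Mtap was measured at 244 and 191 CPM in NSG wild-type, 172 and 225 in NSG knockout, 54.8 and 56.1 in Balb/c wild-type and 26.3 and 19.8 in Balb/c knockout tumors. All Balb/c libraries lay below all NSG libraries. Between hosts, 76.4% of all genes did not overlap in the wild-type and 64.2% in the knockout lines, and the share over both was not counted. Mtap fell by 1.97 (SE 0.22, adjusted p = 0.00178) in the wild-type and by 3.11 (SE 0.24, adjusted p = 0.000319) in the knockout lines on the log2 scale, and both calls held without any 1 library and with the block. Markers of stromal cells are given beside these values: the 6 fibroblast markers summed to 17417 and 25459 CPM in NSG wild-type, 33422 and 29143 in NSG knockout, 12824 and 8695 in Balb/c wild-type and 11272 and 3948 in Balb/c knockout tumors. Between hosts 0 of 6 passed in the wild-type lines, and 5 of 6 passed as lower in Balb/c mice in the knockout lines (4 with the block). Of 5 adipocyte markers, 2 passed as lower in Balb/c mice in the wild-type and 4 in the knockout lines (16.2% and 15.4% of all genes passed as lower). Their sums were 114 and 173 CPM in NSG wild-type, 167 and 139 in NSG knockout, 38.3 and 83.9 in Balb/c wild-type and 200 and 266 in Balb/c knockout tumors, with Lep at 0 in at least 1 library. Most of each sum was Fabp4, which macrophages also express: it was at 120 and 87.4 CPM in NSG knockout and 198 and 263 in Balb/c knockout tumors, a host difference of 1.15 (SE 0.40, adjusted p = 0.0623), while the other 4 markers were the ones that passed as lower. The part of these cells in the Mtap values was not tested. The knockout differences of Mtap were -0.13 (SE 0.22, adjusted p = 0.808) in NSG and -1.27 (SE 0.22, adjusted p = 0.0564) in Balb/c tumors. In the knockout comparisons 0 of the 9 genes of this list passed by edgeR in either host (0.0131% of all genes in NSG and 0.176% in Balb/c tumors). DESeq2 called 2 of them in Balb/c tumors (14% of all genes), Mtap as lower (adjusted p = 3.47e-05) and Enoph1 as higher, and both also passed without a filter on low counts. Calls of this list also changed without Balb/c knockout replicate 2, a fit that leaves 1 knockout library and called far more of all genes. Across the settings tried, the Balb/c knockout difference was -1.59 to -1.07 for Mtap. It was 0.58 to 1.49 for Enoph1 and 0.10 to 0.91 for Adi1.

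Downstream, spermidine is used to make hypusine in the translation factor Eif5a. Eif5a was measured at 417 and 398 CPM in NSG wild-type, 388 and 361 in NSG knockout, 317 and 301 in Balb/c wild-type and 375 and 349 in Balb/c knockout tumors. It passed in 0 comparisons in the edgeR fit to all 8 libraries, and passed as lower in Balb/c wild-type tumors with total-count scaling (adjusted p = 0.0389) and with only the 4 libraries compared. The share of all genes in the fit to 4 libraries is not given here. Of the 4 genes of this list, 1 passed between hosts in the wild-type lines, the hydroxylase Dohh, which fell by 0.86 (SE 0.25, adjusted p = 0.0327), where 31.5% of all genes passed. Among the knockout lines, 2 rose in Balb/c tumors, the synthase Dhps (0.78, SE 0.24, adjusted p = 0.0432) and Eif5a2 (0.82, SE 0.26, adjusted p = 0.046), where 31.1% of all genes passed. With the block 0 of these 3 calls were left, and each was lost without at least 4 of the 8 libraries left out 1 at a time. The knockout comparisons called 0 of 4 by edgeR in either host (0.0131% and 0.176% of all genes), with Dohh at an adjusted p of 0.075 in Balb/c tumors. Dohh passed as higher there without Balb/c knockout replicate 2, a fit that leaves 1 knockout library and called far more of all genes.

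Among polyamine transporters 5 of 9 listed genes were tested, and 2 rose in Balb/c knockout tumors compared with NSG knockout tumors (31.1% of all genes passed, 15.7% as higher). Slc3a2, a subunit of amino acid transporters with a reported part in polyamine export, was measured at 323 and 285 CPM in NSG wild-type, 212 and 152 in NSG knockout, 370 and 366 in Balb/c wild-type and 377 and 444 in Balb/c knockout tumors. Its NSG knockout libraries were the lowest, as for Sat1 and Azin1, and the host difference in the knockout lines was 1.17 (SE 0.21, adjusted p = 0.00581). In these lines 64.2% of all genes did not overlap between hosts. Atp13a2, a lysosomal polyamine exporter, differed by 1.37 (SE 0.35, adjusted p = 0.0205). Its call was lost with the block (adjusted p = 0.0688), without NSG knockout replicate 1 and without Balb/c knockout replicate 1. The other comparisons called 0 of 5 by edgeR with all 8 libraries. Atp13a3 passed between hosts in the wild-type lines with only the 4 libraries compared (adjusted p = 0.013) and without Balb/c knockout replicate 1. It also passed in the Balb/c knockout comparison without Balb/c knockout replicate 2, a fit that leaves 1 knockout library and called far more of all genes. Slc3a2 passed between hosts in the wild-type lines with only the 4 libraries compared (adjusted p = 0.0488). The share of all genes in the fit to these 4 libraries is not given here.

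Of the remaining listed enzymes (Aoc1, Amd2 and Sat2 tested, 3 of 4), 0 passed in any comparison in the edgeR fit to all 8 libraries without the block. Amd2 had an adjusted p of 0.0633 between hosts in the knockout lines, and passed without Balb/c knockout replicate 1, a fit that leaves 1 library in that group. Aoc1 passed the NSG knockout comparison with DESeq2 (adjusted p = 0.00129) and without a filter on low counts, the wild-type host comparison with DESeq2 (adjusted p = 0.00166) and 4 further alternatives without the block, and the difference between hosts with DESeq2 (adjusted p = 0.0199). With the block Aoc1 passed between hosts in the wild-type lines (log2 difference 5.05, adjusted p = 0.0464, against 0.0529 without it), a gene with almost no reads in 3 of these 4 libraries. Aoc1, a diamine oxidase that breaks down putrescine, was at 0 and 0.166 CPM in NSG wild-type, 10.4 and 4.38 in NSG knockout, 0.17 and 6.03 in Balb/c wild-type and 2.86 and 6.42 in Balb/c knockout tumors. Its NSG knockout libraries exceeded both wild-type libraries, which held almost no reads, with an adjusted p of 0.232. In NSG tumors 52.6% of all genes did not overlap between knockout and wild type.

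Myc, a transcription factor known as an activator of Odc1, was measured at 97.4 and 118 CPM in NSG wild-type, 95.8 and 60.6 in NSG knockout, 102 and 82.3 in Balb/c wild-type and 43.9 and 40 in Balb/c knockout tumors. The 2 Balb/c knockout libraries were the lowest, and NSG wild-type and Balb/c wild-type tumors overlapped. In the knockout lines Myc fell by 0.90 with the Balb/c host (SE 0.24, adjusted p = 0.0265), a call lost with the block (adjusted p = 0.0622) and without NSG knockout replicate 1 or either Balb/c knockout library. Its knockout differences were -0.46 (SE 0.24, adjusted p = 0.419) in NSG tumors, with both knockout libraries below both wild-type libraries, and -1.14 (SE 0.24, adjusted p = 0.0569) in Balb/c tumors. Knockout and wild-type libraries did not overlap for 52.6% of all genes in NSG and for 62.2% in Balb/c tumors.

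Of 10 tested genes of the MYC network 3 rose with the Balb/c host in the wild-type lines: Max, the partner of MYC, and Mxd1 and Mnt, which compete with MYC for Max (31.5% of all genes passed, 15.3% as higher). With the block Mnt was left, a call lost without either NSG wild-type library, and Max and Mxd1 were each lost without any 1 of the 4 wild-type libraries. In the knockout lines Max, Mnt and Mxi1 rose and Myc fell, against 31.1% of all genes, and Mxi1 was left with the block. The call of Max was lost without NSG knockout replicate 2 or Balb/c knockout replicate 2, and that of Mnt without either NSG knockout library. Mxd1, a gene that neutrophils express strongly, was measured at 383 and 444 CPM in NSG wild-type, 668 and 298 in NSG knockout, 2194 and 2531 in Balb/c wild-type and 557 and 1763 in Balb/c knockout tumors. Within Balb/c mice both Mxd1 and the neutrophil marker sum were highest in the wild-type libraries and lowest in clone 54, and the part of neutrophils was not tested. The knockout comparisons called 0 of 10 by edgeR in either host (0.0131% of all genes in NSG and 0.176% in Balb/c tumors). DESeq2 called Mxi1 as lower in NSG tumors (adjusted p = 0.00292, where 2.22% of all genes passed) and Myc as lower in Balb/c tumors (adjusted p = 0.000981, where 14% did). Calls of this list changed without Balb/c knockout replicate 2, a fit that leaves 1 knockout library and called far more of all genes. Across the settings tried, the Balb/c knockout difference was -1.36 to -0.97 for Myc and -2.08 to -0.53 for Mxd1.

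A list of 15 other MYC targets and ribosome biogenesis genes, all tested, was compared between Balb/c and NSG wild-type tumors. The list as a whole was not tested. All 15 log2 differences were below 0, with a median of -0.65 against -0.08 over all genes, and 7 passed (16.2% of all genes passed as lower), among them Cdk4, Nme1, Cad, Nop56, Nop58 and Polr1b. With the block 3 were left (Cdk4, Nme1 and Nop56). Fewer than 7 passed without any 1 of the 4 wild-type libraries, fits that leave a group with 1 library. The number of calls over all genes also moved between leave-outs. Nop56, which encodes a nucleolar protein of box C/D particles, was measured at 158 and 109 CPM in NSG wild-type, 84.7 and 81.1 in NSG knockout, 79.9 and 64.4 in Balb/c wild-type and 66.8 and 70.9 in Balb/c knockout tumors. Its host difference in the wild-type lines was -0.89 (SE 0.21, adjusted p = 0.0184). The -1.91 of Odc1 rests on the libraries that chose that gene and was not tested against it.

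In NSG tumors 0 of these 15 genes passed the knockout comparison by edgeR (0.0131% of all genes) and 2 by DESeq2 (2.22%), while 14 of 15 differences were below 0, with a median of -0.38 (0.01 over all genes). An unadjusted p under 0.05 was found for 5 of the 15, and for 14% of all genes. In Balb/c tumors 0 passed by edgeR or DESeq2 (0.176% and 14% of all genes), 8 were above and 7 below 0, and the median was 0.04. In the knockout lines 1 passed between hosts, Cad (-1.36, SE 0.20, adjusted p = 0.00274), where 15.4% of all genes passed as lower. With total-count scaling 4 passed, a scaling that moved the median of all genes from 0.02 to -0.17 and called 2951 genes as lower, against 2354. Proliferation markers moved alongside in the host comparison: they summed to 1035 and 897 CPM in NSG wild-type, 675 and 1098 in NSG knockout, 519 and 511 in Balb/c wild-type and 595 and 440 in Balb/c knockout tumors, and 6 of 8 passed as lower in Balb/c wild-type tumors (16.2% of all genes; 1 with the block). Between hosts in the knockout lines 6 passed as lower and 1, Pcna, as higher (15.4% and 15.7% of all genes; 3 passed with the block). Their part in the values of Srm and the MYC targets was not tested.

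**Figure D5:**
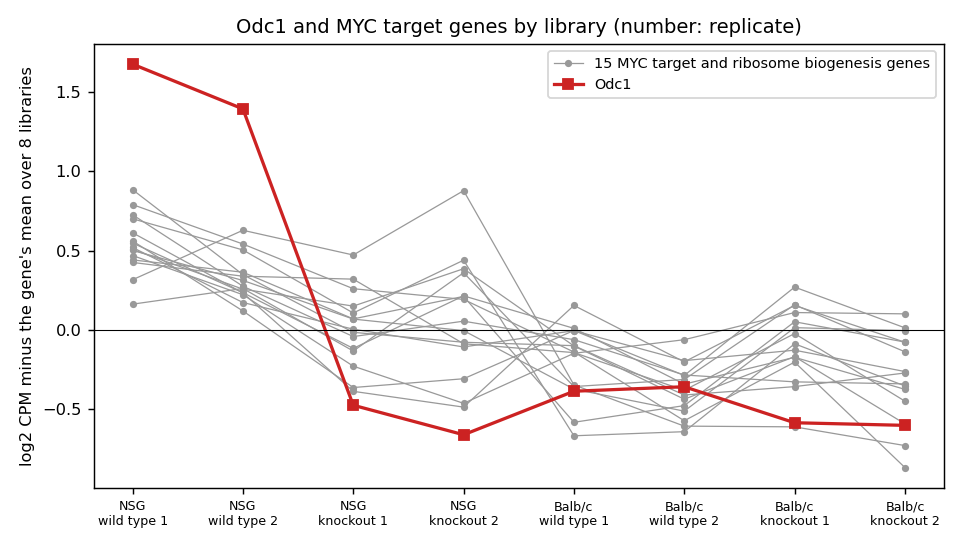
Log2 CPM of Odc1 (red squares) and 15 MYC target and ribosome biogenesis genes (grey) in each library, minus each gene's mean over the 8 libraries; lines join the values of 1 gene and imply no order of the libraries. The 15 genes are higher in the NSG wild-type than in the Balb/c wild-type libraries on average. Odc1 drops further than any of them between the NSG wild-type and NSG knockout libraries, the difference for which it was chosen.

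The 5 genes whose log2 CPM ran most like that of Odc1 over the 8 libraries were Pfkl (Pearson r = 0.975), Ccdc71l (0.973), Hmga1b (0.966), Uck2 (0.963) and Pgd (0.958), among 9734 genes with a mean of at least 10 CPM. These r values describe 8 libraries in which 2 stand apart for Odc1, and carry no test. Pfkl, a phosphofructokinase of glycolysis, was measured at 305 and 249 CPM in NSG wild-type tumors and between 160 and 174 CPM in the other 6. Uck2, a kinase of pyrimidine salvage, was at 228 and 207 CPM in NSG wild-type tumors and between 102 and 125 CPM elsewhere. Hmga1b is a near-identical copy of Hmga1, so its reads are uncertain. Of the pathway lists, Nop56 came closest (r = 0.90, the 27th of 9734), followed by Ncl (0.89) and Nop58 (0.87), while Srm was at 0.61, Myc at 0.60, Azin1 at 0.10 and Sat1 at -0.06.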

How the data were processed

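Tumor RNA was sequenced in 8 libraries. The authors deposited raw counts per Ensembl gene, 1 table a library. Per the submitters' processing notes, cutadapt 1.13, STAR, HTSeq 0.6.1p1 and DESeq2 were used, with the builds mm10 and hg19 named; the role of each, the annotation and the strand setting were not given in the sources used here. Symbols, positions and exon lengths came from GENCODE M21 (GRCm38), which held 24942 of 25006 identifiers. The members and all gene lists were chosen with earlier results of these data known.

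From the deposited counts, edgeR 4.0.16 (R 4.3.3) fitted 4 group means over all 8 libraries (TMM, filterByExpr, quasi-likelihood test, 4 residual degrees of freedom), with Benjamini-Hochberg adjustment over the 15310 genes kept and a threshold of 0.05. All 10 members passed the filter. The common biological coefficient of variation was 0.244. A log2 fold change is knockout minus wild type, or Balb/c minus NSG. CPM were TMM-scaled, and log2 CPM used a prior count of 0.5. TPM divided counts by union exon length over protein-coding genes, because 1 short RNA locus took a variable share of reads. Replicates differed well beyond sampling noise (chi-square per degree of freedom 18.1 to 115), so none was counted as a repeat deposit.

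Alternatives were RLE and total-count scaling, no filter, DESeq2 1.42.0, limma-voom (limma 3.58.1), leaving out each library, only the 4 samples compared, and the cell line as a block. Titles name the same 4 lines in both hosts, so host comparisons are paired by line; the deviations of the lines correlated at 0.08 (wild type) and -0.31 (knockout) between hosts. Knockout comparisons hold different lines and have no block. The block leaves 2 residual degrees of freedom.

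All 10 members are named. Of each other list, called genes are named, or the most abundant where none was called, at most 6 a list. Genes like Odc1 are the 5 with the highest r. Protein sequences were not used here. Some genes of the lists are counted but not reported here by name.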

Additional observations from a re-analysis of the deposited data

How the results depend on the processing

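Of 720 member fold changes recomputed under alternatives to the 50 reported, 651 kept their direction and side of the threshold, or, where untested, moved less than the replicate spread, 22 changed sign, 23 passed newly, 15 no longer passed and 9 Odc1 values moved further. With RLE size factors and with DESeq2, Sat1 in the Balb/c knockout comparison turned to -0.03. With total-count scaling, Sms and Amd1 between hosts in the knockout lines turned to -0.18 and -0.12, the median of all genes shifted from -0.08 to -0.24 between hosts in the wild-type lines and from 0.02 to -0.17 in the knockout lines, and the share of calls that were higher went from 48.6% to 36.5% and from 50.5% to 37.3% (57.9% with RLE in the wild-type lines). In the Balb/c knockout comparison that share was 25.9%, 16% with RLE and 31.8% with total counts.

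Sign changes when 1 library was left out gave the following ranges over the 8 leave-outs. For the knockout in NSG they were Sms -0.73 to 0.02. For the knockout in Balb/c they were Srm -0.32 to 0.42, Sms -0.07 to 0.37, Sat1 -0.07 to 0.10. For the host in the knockout lines they were Odc1 -0.12 to 0.07, Sms -0.17 to 0.18, Amd1 -0.44 to 0.41, Oaz2 -0.10 to 0.04, Smox -1.36 to 0.23, Paox -0.46 to 0.86. For the difference of the knockout effect they were Srm -0.09 to 0.67, Amd1 -0.34 to 0.45.

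The NSG knockout comparison called 2 genes, 133 without a filter, 340 with DESeq2, 1 with limma-voom, 1 with only its 4 samples and 0 to 1 leaving out a library, and of the members 0 (2 with DESeq2). The Balb/c knockout comparison called 27 genes, 94 with RLE, 1774 without a filter, 2144 with DESeq2, 0 with only its 4 samples and 0 to 3886 leaving out a library (3886 without the clone 69 library); its members called were 0, 1 without a filter, 1 with DESeq2 (Smox both times) and 0 to 3 leaving out a library. Between hosts, the wild-type lines gave 4825 genes, 2073 with the replicate block and 858 to 6361 leaving out a library, and 1 member, 2 with RLE, 2 with total counts, 3 with DESeq2, 5 with only the 4 samples, 0 with the block and 0 to 3 leaving out a library. The knockout lines gave 4757 genes, 2450 with only the 4 samples, 2878 with the block and 2461 to 4640 leaving out a library, and 3 members, 1 with only the 4 samples and 1 to 4 leaving out a library. The difference of the knockout effect gave 0 genes, 674 without a filter, 974 with DESeq2 and 0 to 2370 leaving out a library, and 0 members, 0 to 2 leaving out a library. With the clones exchanged between hosts, a pairing chosen after seeing the data because their deviations correlated at -0.31, 2 members passed between hosts in the wild-type lines and 307 genes passed in the difference. The cause of these changes was not tested. Between hosts in the wild-type lines RLE called 4621, total counts 5220 and DESeq2 4940 of all genes. For that comparison, the number of all genes called with only the 4 samples or with the exchanged clones is not given here. The member counts of those 2 fits therefore have no share of all genes beside them. With 2 libraries a group, a leave-out leaves a group with 1 library that is assumed to vary like the others. Beside the calls named in the report, the replicate block changed no call of a member.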
